A study of Mus musculus with 6 samples.

Results

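The interferon-stimulated effector genes Ifit1, Ifit2, Ifit3, Isg15, Usp18, Rsad2, Bst2, Oasl2 and Stat2 were followed in proximal tubules of mice given aristolochic acid I. They were taken by gene symbol from the deposited table, and all 9 symbols were found among its 32544 rows. The mice were C57Bl/6 animals, called control mice in the series' design text, and kidneys were collected 24 h after 1 injection. The AA group (3 libraries) had received aristolochic acid I, a plant nephrotoxin that forms DNA adducts, and the DMSO group (3 libraries) the solvent, both described as a dose of 3 mg/kg. A handful of hand-dissected tubules from the S2 and S3 segments, the later stretches of the proximal tubule, was pooled from each kidney for messenger RNA sequencing. Sex and age are not in the labels. Nor do the labels tell if the 3 libraries of a group are from different mice, so p-values measure only the spread between these libraries, which may be technical.

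Interferons are secreted proteins that warn cells of viral nucleic acid. Type I and type III interferons act through receptor-bound JAK kinases on a complex that holds STAT2 and IRF9 and binds the interferon-stimulated response element (ISRE) in the promoters of many antiviral genes, while interferon gamma acts mainly through the gamma-activated site (GAS). Epithelial cells such as those of the tubule hold these genes low at rest and can switch them on after interferon or after RNA or DNA is sensed in the cytosol.

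The ISRE is the element these genes are known for, so their promoter letters are shown first. RefSeq promoter windows (GRCm38.p6, the assembly also called mm10), each from 250 bases before to 50 bases after a start site, were found for 8 of the 9 genes, all but Usp18. An ISRE core, searched on both strands as TTTC, any 2 bases and TTTC again, occurred in 6 of the 8 genes, against 3.99% of 27025 genes with a window. Each stretch reads 5′ to 3′ on the gene's strand, with the ISRE core in capitals and 12 bases on either side.
Ifit1, chr19:34640773-34640825, plus strand: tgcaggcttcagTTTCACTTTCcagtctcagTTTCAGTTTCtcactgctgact
Ifit3, chr19:34583361-34583428, plus strand: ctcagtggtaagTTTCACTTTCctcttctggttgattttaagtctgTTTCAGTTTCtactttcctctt
Isg15, chr4:156200863-156200908, minus strand: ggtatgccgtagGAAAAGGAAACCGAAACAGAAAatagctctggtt
Bst2, chr8:71537575-71537614, minus strand: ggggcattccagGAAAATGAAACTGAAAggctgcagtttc
Rsad2, chr12:26456551-26456584, minus strand: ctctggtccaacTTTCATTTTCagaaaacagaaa
Stat2, chr10:128270264-128270297, plus strand: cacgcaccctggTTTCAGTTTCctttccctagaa

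Ifit1 and Ifit3 each held 2 separate cores, beginning at positions -104 and -85 from the start site in Ifit1 and at -156 and -122 in Ifit3. Isg15 held 3 cores and Bst2 held 2 that overlap each other and are read on the opposite strand. Rsad2 and Stat2 held 1 core each, at -120 and -222. Neither the 2 windows of Ifit2 nor the window of Oasl2 held these letters, which says only that this spelling is not in these 300 bases. A GAS core (TTC, any 3 bases and GAA, both strands) occurred in the windows of Ifit2 and Bst2, against 9.55% of all genes with a window, and in Bst2 it overlaps the first ISRE core. Among the 6 genes that passed the test described below, Ifit1, Ifit3, Bst2 and Stat2 held an ISRE core and Ifit2 and Oasl2 did not. Among the 3 that did not pass, Isg15 and Rsad2 held one.

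The libraries ranged from 13304877 to 31136251 reads, and a single read is worth 0.0752 CPM (read counts scaled to a total of 1000000) in the shallowest and 0.0321 CPM in the deepest. Of all genes, 14311 reached 1 CPM in at least 3 libraries, the 9 interferon-stimulated genes among them. Each was tested with limma's moderated test on log2(CPM + 1) with Benjamini-Hochberg adjustment over all 14311, and passed under an adjusted p of 0.05. The log2 ratios below are AA minus DMSO on that scale, which understates the change of low genes. A gene under 1 CPM in every library of 1 group can pass the filter through the other group alone. The counts for gene lists include such genes. The p53 targets Cdkn1a (0.867 to 3.26 CPM in DMSO, 192 to 279 CPM in AA) and Mdm2 (49.6 to 66.2 and 209 to 305 CPM) separated the groups as labelled. The summed proximal tubule markers were at 40336 to 56128 CPM in DMSO and 33083 to 46453 CPM in AA, far above every other cell type's. Most of that sum is Kap, and without it, a choice made after its values were seen, the groups did not overlap (21113 to 28074 CPM in DMSO and 10725 to 13374 CPM in AA). Of the 12 markers 5 were lower and 1 was higher (6 and 0 with library medians equalised), with a median log2 ratio of -0.60. By comparison, 8.66% of all tested genes were lower and 22.3% higher. Lrp2, which encodes megalin, and Acy3, both named after their values were seen, had log2 ratios of -1.44 and -2.20 (adjusted p = 0.00199 and 0.000102). DMSO replicates 1 and 2 stood apart from all other libraries by over 2 on the log2 scale for 40 genes, none of them named here. The median log2 ratio of all tested genes was 0.21 as deposited and -0.05 after the library medians were equalised, so the counts for each gene list that change with this scaling are given both ways. With medians equalised, 1606 of the 14311 tested genes passed as higher and 2422 as lower, the background for list counts in that fit.

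Ifit1, Ifit2, Ifit3, Bst2, Oasl2 and Stat2 were higher in AA tubules, and none of the 9 genes was lower. The differences were largest for Ifit3, Bst2, Oasl2 and Ifit2, with 3.70 to 4.65 times the mean CPM of DMSO. Isg15, Usp18 and Rsad2 did not pass. Thus 6 of 9 passed as higher and 0 as lower, where 22.3% of all tested genes passed as higher and 8.66% as lower. In 8 of the 9 genes every AA library lay above every DMSO library, which held for 33.4% of all tested genes. The median log2 ratio of the 9 genes was 0.82, against 0.21 for all tested genes. With library medians equalised, with quantile normalization or with TMM factors (trimmed mean of M-values), 4 of the 9 passed, namely Ifit2, Ifit3, Bst2 and Oasl2. In bulk tubules, fewer cells of a type and less RNA per cell cannot be told apart, which holds for every level below.

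**Figure D1:**
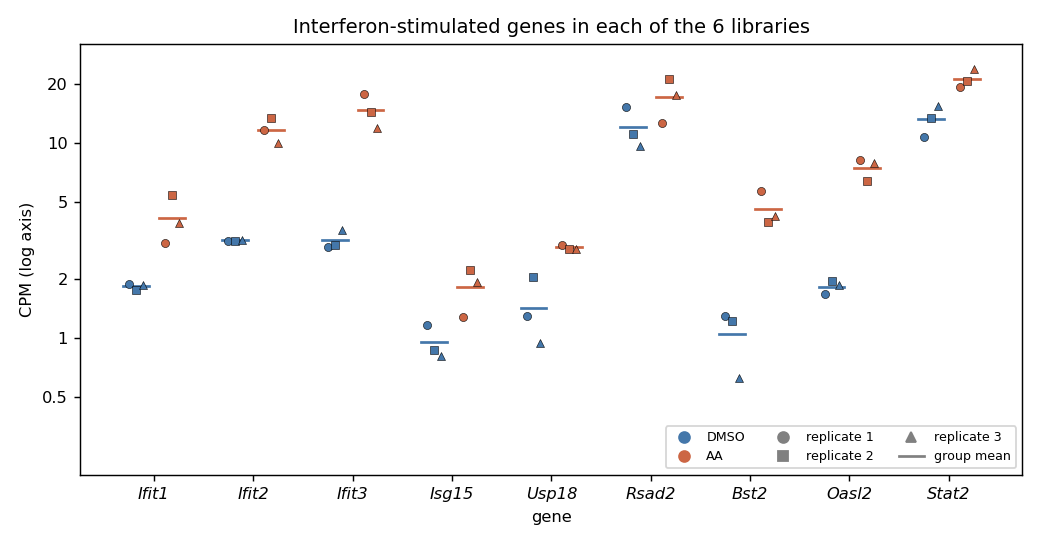
CPM (log axis) of the 9 interferon-stimulated genes in the 3 DMSO (blue) and 3 AA (orange) libraries, with a symbol for each replicate and bars for group means. AA and DMSO points are separate for every gene except Rsad2, whose AA replicate 1 (12.6 CPM) lies below DMSO replicate 1 (15.3 CPM).

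The IFIT proteins bind viral RNA or its translation machinery. Their genes lie near each other on the plus strand of chromosome 19 (mm10), Ifit2 at chr19:34550694-34576419, Ifit3 at chr19:34583531-34588731 and Ifit1 at chr19:34640871-34650009. Ifit3 stood at 2.93, 2.99 and 3.57 CPM in DMSO replicates 1, 2 and 3 and at 17.8, 14.4 and 11.9 CPM in AA replicates 1, 2 and 3. The lowest AA library was more than 3 times the highest DMSO library. The log2 ratio was 1.90 (SE 0.23, limma adjusted p = 0.000236), the largest of the 9, and 1.68% of all tested genes had a larger one.

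Ifit2, which can act on translation and cell death, stood at 3.14, 3.15 and 3.20 CPM in the DMSO libraries and at 11.6, 13.4 and 9.98 CPM in the AA libraries. The DMSO values were almost equal (SD 0.0308 CPM, n = 3) and lay far below the more scattered AA values (SD 1.72 CPM, n = 3). The difference was 1.60 on the log2 scale (SE 0.22, limma adjusted p = 0.000559). No 31-base run of Ifit2 transcripts occurs in another gene of the GENCODE M21 annotation.

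Ifit1, a sensor of incompletely capped RNA, was lower, with 1.88, 1.77 and 1.88 CPM (45, 55 and 30 reads) in DMSO and 3.08, 5.39 and 3.88 CPM (41, 96 and 54 reads) in AA. All AA values were above all DMSO values, AA replicate 1 being nearest to them and AA replicate 2 farthest. Its log2 ratio of 0.82 (SE 0.26, limma adjusted p = 0.0344) was the smallest of the 3 Ifit genes. The call was lost when library medians were equalised (log2 ratio 0.56, adjusted p = 0.11), with TMM factors (0.0658), quantile normalization (0.166) or no filter on low values (0.0855). It was also lost without DMSO replicate 1, 2 or 3 (adjusted p = 0.0734, 0.0742 and 0.0616) and without AA replicate 2 or 3 (0.153 and 0.0776). A term that sets DMSO replicates 1 and 2 apart from the other libraries leaves AA compared with DMSO replicate 3 alone. That comparison gave a log2 ratio of 0.80 and rests on 1 control, so no p is given.

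Ifit3 and Ifit1 have close copies with which they can share reads. Of the 31-base runs in Ifit3, 61.8% also occur in Ifit3b. That copy stood at 1.72, 1.80 and 1.94 CPM in DMSO and at 6.69, 7.52 and 7.18 CPM in AA (log2 ratio 1.53, SE 0.23, adjusted p = 0.000919). The sum of Ifit3 and Ifit3b, which a split of reads between them cannot move, was 4.98 ± 0.467 CPM in DMSO and 21.8 ± 2.70 CPM in AA (mean ± SD, n = 3 each). Of the runs in Ifit1, 10.8% are shared, most of them with Ifit1bl2 (9.16%). Ifit1bl2 went the other way, from 11.6 ± 5.64 to 4.69 ± 1.19 CPM (n = 3 each, log2 ratio -1.06, adjusted p = 0.036), although AA replicate 3 (5.96 CPM) lay above DMSO replicate 3 (5.76 CPM). This call was lost without DMSO replicate 1 or 2 (adjusted p = 0.0992 and 0.128), without AA replicate 1 or 2 (0.0766 and 0.122) and with no filter on low values (0.104). Compared with DMSO replicate 3 alone, the log2 ratio of Ifit1bl2 was -0.27.

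Oasl2 encodes a relative of the oligoadenylate synthetases that carries ubiquitin-like domains, and occupies chr5:114896936-114912234 (plus strand). It stood at 1.67, 1.96 and 1.88 CPM in the DMSO libraries and at 8.12, 6.34 and 7.90 CPM in the AA libraries. The groups were tight and far apart, with SDs of 0.147 and 0.968 CPM (n = 3 each). The log2 ratio was 1.57 (SE 0.24, limma adjusted p = 0.000913). Its relative Oasl1 had 1, 5 and 9 reads in DMSO and 41, 80 and 136 reads in AA, or 0.255 ± 0.274 and 5.78 ± 3.52 CPM (n = 3 each, log2 ratio 2.33, SE 0.36, adjusted p = 0.00115). Oasl1 was under 1 CPM in every DMSO library and passed the filter through AA alone, so its adjusted p carries that selection.

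Bst2 encodes tetherin, which holds budding enveloped viruses at the cell surface, and occupies chr8:71534255-71537456 (minus strand). It stood at 1.30, 1.22 and 0.627 CPM (31, 38 and 10 reads) in DMSO and at 5.64, 3.93 and 4.24 CPM (75, 70 and 59 reads) in AA. DMSO replicate 3 was lowest, AA replicate 1 was highest and the groups did not overlap. The log2 ratio was 1.46 (SE 0.27, limma adjusted p = 0.00276). None of its 31-base runs occurs in another gene.

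Rsad2 encodes viperin, a radical SAM enzyme that makes a chain-terminating nucleotide, and occupies chr12:26442746-26456452 (minus strand). It stood at 15.3, 11.1 and 9.59 CPM in DMSO and at 12.6, 21.2 and 17.4 CPM in AA. AA replicate 1 fell inside the DMSO range, which made Rsad2 the 1 gene of the 9 whose groups overlapped. The difference on the log2 scale was 0.47 (95% interval -0.06 to 1.00, limma adjusted p = 0.161). It came to 0.66 without AA replicate 1 (adjusted p = 0.0748) and to 0.31 without AA replicate 2 (adjusted p = 0.447), so either AA library moves the value of Rsad2 and neither moves it past the threshold. Cmpk2, a nucleotide kinase gene that lies next to Rsad2 and was named after its values were seen, went from 5.85 ± 1.06 to 8.39 ± 1.80 CPM (n = 3 each, log2 ratio 0.45, adjusted p = 0.174).

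Isg15 encodes a ubiquitin-like protein that is joined to other proteins, and occupies chr4:156199424-156200818 (minus strand). It had the lowest mean CPM of the 9 genes, with 1.17, 0.867 and 0.815 CPM (28, 27 and 13 reads) in DMSO and 1.28, 2.25 and 1.94 CPM (17, 40 and 27 reads) in AA. The groups did not overlap, but AA replicate 1 exceeded DMSO replicate 1 by less than the SD of either group. The log2 ratio was 0.52 (95% interval -0.08 to 1.12, limma adjusted p = 0.164). Of the 31-base runs in Isg15, 13.1% occur in other genes, 10.2% in the gene model AC151275.1, so part of its level is uncertain.

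Usp18, the protease that removes ISG15 from proteins and also dampens the type I interferon receptor, occupies chr6:121245906-121270917 (plus strand). It stood at 1.30, 2.06 and 0.940 CPM (31, 64 and 15 reads) in DMSO and at 3.01, 2.86 and 2.87 CPM (40, 51 and 40 reads) in AA. The AA libraries were nearly equal (SD 0.0804 CPM, n = 3), while DMSO replicate 2 was more than 2 times DMSO replicate 3. The log2 ratio was 0.71 (SE 0.27, 95% interval 0.12 to 1.30, limma adjusted p = 0.0645). Usp18 passed without DMSO replicate 2 (0.89, adjusted p = 0.0451) and in a fit without a variance trend (adjusted p = 0.0293). The antisense gene model Gm44148 overlaps Usp18 and shares 3.48% of its 31-base runs, and the strand setting of the counting is not given in the sources used here.

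Of 4 enzymes that join ISG15 to proteins, 0 passed in either direction in limma, where 30.9% of all tested genes passed. The 1 with an unadjusted p under 0.05 was Uba7. Uba7, the activating enzyme, named after its values were seen, went from 6.86 ± 1.74 to 11.5 ± 3.18 CPM (n = 3 each, log2 ratio 0.66, adjusted p = 0.08) and passed without AA replicate 1 (adjusted p = 0.0333). Ube2l6, the conjugating enzyme, also named after its values were seen, had a log2 ratio of 0.60 (adjusted p = 0.149) and passed without DMSO replicate 3 (adjusted p = 0.0472). Herc6, the main ligase for ISG15 in mice, was at -0.21 (adjusted p = 0.481) and the ligase gene Arih1 at 0.12 (adjusted p = 0.537).

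Stat2 encodes the factor that gives the ISRE-binding complex its activating domain, and occupies chr10:128270559-128292849 (plus strand). It stood at 10.7, 13.4 and 15.5 CPM in DMSO and at 19.3, 20.7 and 23.7 CPM in AA. The groups did not overlap, and DMSO replicate 3 came nearest to AA. Stat2 rose by 0.66 on the log2 scale (SE 0.20, limma adjusted p = 0.0268). The call was lost with library medians equalised (log2 ratio 0.40, adjusted p = 0.118), TMM factors (0.0843) or quantile normalization (0.13). It was also lost without DMSO replicate 1 (0.0845), AA replicate 2 (0.0723) or AA replicate 3 (0.0987). The log2 ratio of Stat2 was 0.43 against DMSO replicate 3 alone.

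**Figure D2:**
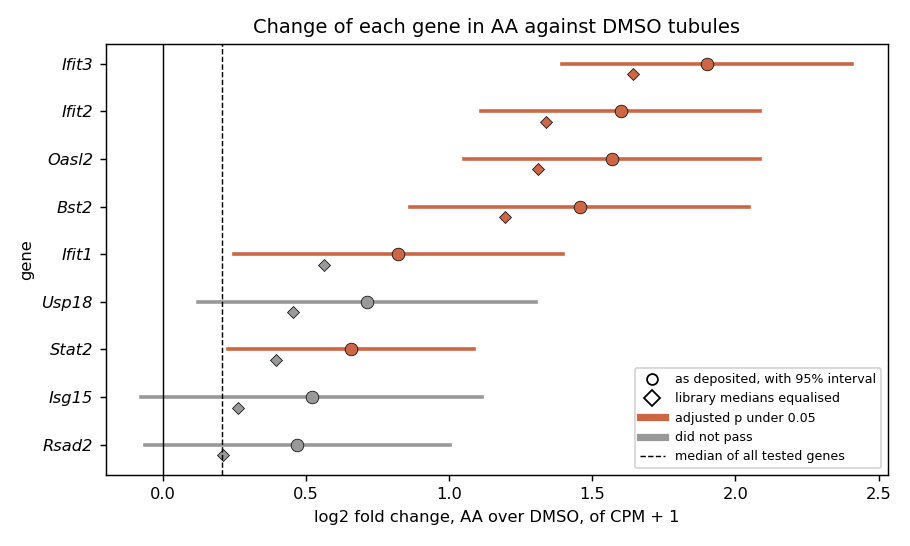
Log2 ratio of AA over DMSO on the log2(CPM + 1) scale for the 9 genes (circles with 95% intervals of limma) and the same after library medians were equalised (diamonds), in orange for an adjusted p under 0.05. Ifit3, Ifit2, Oasl2 and Bst2 lie at 1.46 to 1.90 and pass in both fits, whereas Ifit1 (0.82) and Stat2 (0.66) pass as deposited but not after the medians were equalised.

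Levels of different genes were compared per kilobase of exon, merged over all annotated transcripts of a gene. Ifit1, Ifit3 and Isg15 have 1 such transcript each, Stat2 has 8 and Oasl2 has 9, so the order of genes can depend on that choice. The place of Ifit3 can also depend on reads shared with Ifit3b. In DMSO, Rsad2 was highest with a level of 2.77 ± 0.686 CPM per kb (mean ± SD, n = 3), followed by Stat2 (2.23 ± 0.403), Ifit3 (1.81 ± 0.204), Isg15 (1.26 ± 0.255) and Bst2 (1.16 ± 0.406). Below them came Ifit2 (0.805 ± 0.00784), Ifit1 (0.694 ± 0.025), Usp18 (0.513 ± 0.204) and Oasl2 (0.288 ± 0.0231 CPM per kb). Of neighbours in this order, Ifit3 and Isg15, Ifit2 and Ifit1, and Usp18 and Oasl2 did not overlap between libraries, and the other pairs did. In AA, Ifit3 led with a level of 8.42 ± 1.70 CPM per kb (n = 3), followed by Bst2 (5.10 ± 1.01), Rsad2 (3.93 ± 0.996), Stat2 (3.58 ± 0.378) and Ifit2 (2.97 ± 0.437). Isg15 (2.41 ± 0.654), Ifit1 (1.55 ± 0.441), Oasl2 (1.17 ± 0.152) and Usp18 (1.04 ± 0.0288 CPM per kb) stood lowest. In that order Ifit3 and Bst2 were the 1 neighbouring pair without overlap. Ifit3 thus moved from the third place to the first and Bst2 from the fifth to the second, by rank of mean level.

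The AA libraries did not rank alike over the 9 genes. AA replicate 2 was highest for Ifit1, Ifit2, Isg15 and Rsad2, AA replicate 1 for Ifit3, Usp18, Bst2 and Oasl2, and AA replicate 3 for Stat2. Ifit1, Isg15, Rsad2 and Stat2 had their lowest AA value in AA replicate 1, the shallowest library. In DMSO, replicate 3 was the lowest library for Isg15, Usp18, Rsad2 and Bst2 and the highest for Ifit2, Ifit3 and Stat2. Against DMSO replicate 3 alone, the log2 difference of the AA mean was 1.77 for Bst2, 1.76 for Ifit3, 1.59 for Ifit2, 1.55 for Oasl2 and 1.01 for Usp18. It was 0.80 for Ifit1, 0.74 for Rsad2, 0.62 for Isg15 and 0.43 for Stat2. These differences rest on 1 control library and carry no test.

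The 5 other genes whose profile over the 6 libraries was most like the mean standardised profile of the 9 genes were Tmem199 (Pearson r = 0.999), Synm (0.999), Rhod (0.999), Snai3 (0.998) and Ces2e (0.998). The 6 points fall into the AA and DMSO groups, so any gene with a steady difference between the groups scores highly, and no p is given. Tmem199, linked to Golgi homeostasis, went from 9.27 ± 0.552 to 22.9 ± 2.05 CPM, and Ces2e, a carboxylesterase gene, from 11.4 ± 2.26 to 146 ± 30.8 CPM (n = 3 each).

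Most interferon genes gave no reads. Of 21 type I, II and III interferon genes, 13 had 0 reads in all 6 libraries. One was Ifnb1, for which 0 reads allow a level of up to 0.0964 CPM in the deepest library and 0.225 CPM in the shallowest (3 reads, counting error only). Ifnk, a type I interferon gene known from keratinocytes, had 11 to 66 reads per library and was the 1 gene that could be tested. It went from 1.92 ± 0.36 to 1.84 ± 0.966 CPM (n = 3 each, adjusted p = 0.844). Ifnab, another type I interferon gene, had 0 reads in every DMSO library and 16, 4 and 8 reads in AA replicates 1, 2 and 3, which left it below the filter. In the fit without a filter its log2 ratio was 0.70 (adjusted p = 0.0487). Ifna16, named after its values were seen, went the other way, with 5, 12 and 2 reads in DMSO and 0, 0 and 1 in AA. Its log2 ratio in the same fit was -0.27 (adjusted p = 0.0981). The summed level of the 21 genes overlapped between the groups (1.63 to 2.73 CPM in DMSO, 2.33 to 3.03 CPM in AA). Type I interferon genes resemble each other, and reads can be shared between them.

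Of 9 genes for interferon receptors and their kinases, 2 were higher and 7 did not pass, with a median log2 ratio of 0.33. This share is near the 22.3% of all tested genes that passed as higher. With library medians equalised 2 were higher and 1, the kinase gene Jak2, named after its values were seen, was lower (log2 ratio -0.24 as deposited, adjusted p = 0.212, and -0.50, adjusted p = 0.0363, after equalising). The 2 were the chains of the interferon gamma receptor. Ifngr2 went from 12.5 ± 1.86 to 40.1 ± 2.44 CPM (n = 3 each, log2 ratio 1.61, SE 0.17, adjusted p = 0.000109). Ifngr1 went from 13.8 ± 3.28 to 36.0 ± 3.05 CPM (n = 3 each, log2 ratio 1.34, SE 0.19, adjusted p = 0.000755). A difference in response between the receptors was not tested.

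Of 7 interferon regulatory factors, 4 were higher, 1 lower and 2 short of the threshold (median log2 ratio 0.66). Over all tested genes 22.3% were higher and 8.66% lower. Without DMSO replicate 1, AA replicate 2 or AA replicate 3 in turn, 2 of these factors were higher. Equalising library medians left 3 higher and 1 lower, and against DMSO replicate 3 alone the median log2 ratio was 0.76. Irf9, the partner of STAT2 in the ISRE-binding complex, rose from 6.63 ± 1.10 to 16.1 ± 4.04 CPM (n = 3 each, log2 ratio 1.14, SE 0.24, adjusted p = 0.00549). Its log2 ratio was 1.00 against DMSO replicate 3 alone. Irf1, a factor induced by interferon gamma, rose by 1.37 on the log2 scale (adjusted p = 0.00278). Irf7, which amplifies type I interferon, rose by 1.10 (adjusted p = 0.0209), a call lost without DMSO replicate 1 (0.0682), AA replicate 2 (0.0738) or AA replicate 3 (0.0775). Irf8, named after its values were seen, was higher by 0.66 (adjusted p = 0.0331), but passed in 1 of the 6 fits that leave out a library, the one without AA replicate 1, and not with library medians equalised (0.147). Irf5 fell by 0.71 on the log2 scale (adjusted p = 0.0312), a call lost without DMSO replicate 2 (0.0907), DMSO replicate 3 (0.0868) or AA replicate 2 (0.124).

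Of 22 tested sensors of nucleic acid and their adaptors, 8 were higher, 0 lower and 14 short of the threshold. This compares with 22.3% higher and 8.66% lower over all tested genes, and the median log2 ratio of the list was 0.54. Equalising library medians left 4 higher and 2 lower, and leaving out AA replicate 2 or 3 left 5 and 3 higher. The median log2 ratio was 0.52 against DMSO replicate 3 alone. Myd88, the adaptor of most Toll-like receptors, rose from 10.3 ± 1.77 to 25.5 ± 3.90 CPM (n = 3 each, log2 ratio 1.24, adjusted p = 0.0014). Adar, which edits double-stranded RNA, was higher by 0.87 (adjusted p = 0.0071) and Zc3hav1, an antiviral zinc finger gene, by 0.82 (adjusted p = 0.00928) on the log2 scale. With DMSO replicate 3 as the only control, the log2 ratios were 0.59 for Adar and 0.41 for Zc3hav1. Trex1, a nuclease of cytosolic DNA, was higher by 1.01 (adjusted p = 0.0174), and was lost without DMSO replicate 2 (0.0535) or AA replicate 3 (0.0756) and with library medians equalised (0.0557).

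On a list of other interferon-stimulated genes, 25 of 46 tested were higher, 0 lower and 21 short of the threshold. The shares over all tested genes were 22.3% higher and 8.66% lower, and the median log2 ratio of the list was 0.71. With library medians equalised 19 were higher, and without AA replicate 2 there were 15. Compared with DMSO replicate 3 alone, the list had a median log2 ratio of 0.73. Isg20, an RNA exonuclease gene, went from 0.571 ± 0.198 to 9.26 ± 4.38 CPM (n = 3 each, log2 ratio 2.63, SE 0.31, adjusted p = 0.00021). It was under 1 CPM in every DMSO library and passed the filter through AA alone, so its adjusted p carries that selection. Trafd1, a regulator of innate signalling, rose by 1.37 (adjusted p = 0.000493), the galectin gene Lgals9 by 1.44 (adjusted p = 0.00128) and Ifitm3, which blocks virus entry from endosomes, by 1.31 (adjusted p = 0.00136) on the log2 scale. Mx1, an interferon-induced GTPase gene named after its values were seen, stood at 6.65, 9.99 and 2.63 CPM in DMSO and at 2.41, 4.04 and 4.81 CPM in AA (log2 ratio -0.54, adjusted p = 0.305). Without DMSO replicate 3, Mx1 passed as lower (-0.98, adjusted p = 0.036).

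Of 23 tested genes that respond to interferon gamma, 14 were higher, 0 lower and 9 short of the threshold. The list is not limited to genes that respond to interferon gamma alone. Among all tested genes 22.3% were higher and 8.66% lower, and the median log2 ratio of the list was 0.89. Equalising library medians left 8 higher. There were 9 without DMSO replicate 1, 9 without AA replicate 2 and 8 without AA replicate 3. The median log2 ratio was 0.94 against DMSO replicate 3 alone. Tap1, which carries peptides to MHC class I, rose from 5.56 ± 1.63 to 28.4 ± 5.68 CPM (n = 3 each, log2 ratio 2.18, SE 0.24, adjusted p = 0.000124). The chemokine gene Cxcl10 rose by 2.53 (adjusted p = 0.000999), and the GTPase genes Gbp3 and Gbp2 by 1.63 (adjusted p = 0.00106) and 2.06 (adjusted p = 0.00128) on the log2 scale. Of the 9 short of the threshold, only Ciita and Gbp5 had log2 ratios below 0, at -0.30 (adjusted p = 0.525) and -0.25 (adjusted p = 0.527). DMSO replicate 2 was their highest library (11.1 and 30.8 CPM). Cxcl9, which was below the filter, went from 0.67 ± 0.255 to 0.465 ± 0.173 CPM (n = 3 each). Ciita, Gbp5 and Cxcl9 were named after their values were seen, and their alternative fits are not given here. Genes of the Gbp family resemble each other, and reads can be shared between them.

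Of 13 tested negative regulators, most of them of JAK-STAT signalling, 2 were higher, 0 lower and 11 short of the threshold. Over all tested genes 22.3% were higher and 8.66% lower, and the median log2 ratio of the list was 0.31. Socs3, which blocks JAK kinases, went from 1.32 ± 0.096 to 9.97 ± 2.51 CPM (n = 3 each, log2 ratio 2.21, SE 0.26, adjusted p = 0.000179). Tnfaip3, which encodes A20, a brake on NF-kB rather than on JAK-STAT signalling, rose by 1.85 on the log2 scale (SE 0.26, adjusted p = 0.000592).

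**Figure D3:**
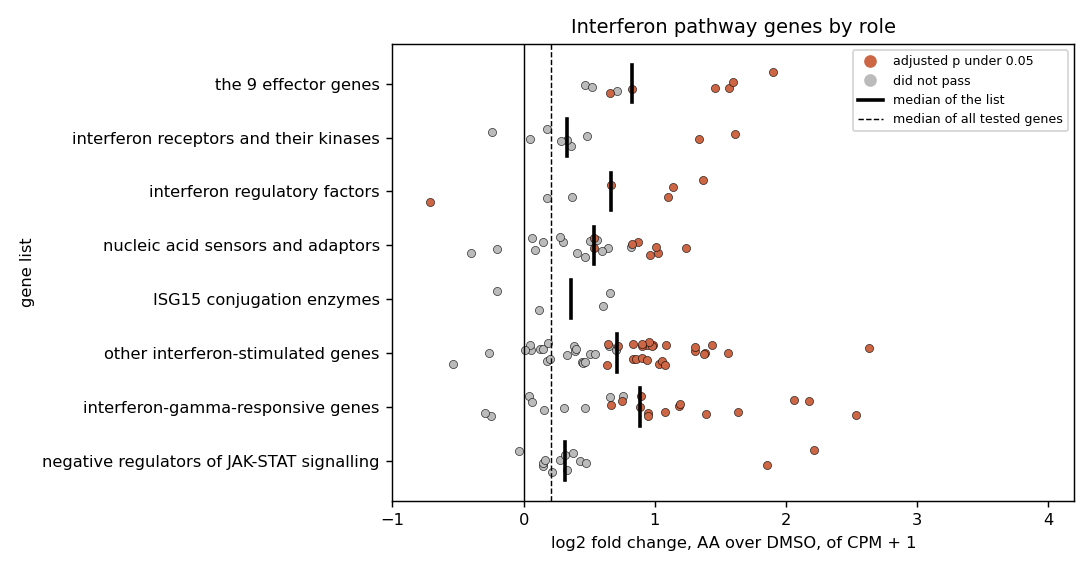
Log2 ratio of AA over DMSO for every tested gene of each interferon pathway list (one row per role), in orange for an adjusted p under 0.05, with a black bar for the list median and a dashed line at the median of all tested genes (0.21). The medians of the 9 effector genes (0.82), the other interferon-stimulated genes (0.71) and the genes that respond to interferon gamma (0.89) lie to the right of those of the receptors (0.33) and negative regulators (0.31).

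Other cell types in a dissected tubule also carry interferon-stimulated RNA. Of 12 tested markers of macrophages and monocytes, 3 were higher and 0 lower (1 and 0 without AA replicate 2, 2 and 1 with library medians equalised), against 22.3% of all tested genes that passed as higher. All of them but Csf1r had log2 ratios above 0. The summed level of the list, most of which is Csf1r, was at 195 to 283 CPM in DMSO and 185 to 243 CPM in AA. Without Csf1r, a choice made after its values were seen, the other 13 markers summed to 27.6 to 35.9 CPM in DMSO and 70.8 to 88.3 CPM in AA, and without Cd68 as well to 27.2 to 34.8 and 47.4 to 50.7 CPM, higher in every AA library. Csf1r itself went from 205 ± 47.0 to 144 ± 30.8 CPM (n = 3 each, log2 ratio -0.50, adjusted p = 0.0773), and passed as lower without DMSO replicate 1 (0.0365) and with library medians equalised (0.0176). The leukocyte gene Ptprc went from 8.97 ± 1.08 to 11.4 ± 0.883 CPM (n = 3 each, log2 ratio 0.31, adjusted p = 0.255) and Adgre1 from 1.29 ± 0.456 to 2.14 ± 0.736 CPM (n = 3 each, adjusted p = 0.26). Cd68, a lysosomal membrane gene used as a macrophage marker, rose from 0.933 ± 0.484 to 28.4 ± 9.30 CPM (n = 3 each, log2 ratio 3.91, adjusted p = 1.26e-05). Of 4 markers of plasmacytoid dendritic cells, which make type I interferon, Cd209d had 0 reads in all libraries and Siglech stayed under 1 CPM. Ccr9 went from 2.72 ± 1.18 to 2.38 ± 0.444 CPM (n = 3 each, log2 ratio -0.09, adjusted p = 0.842). Il3ra, which was below the filter, went from 0.513 ± 0.0598 to 1.41 ± 0.747 CPM (n = 3 each). Both were named after their values were seen. The sums of the 4 markers overlapped (2.34 to 5.11 CPM in DMSO, 3.37 to 5.39 CPM in AA). The sums of neutrophil markers (8.79 to 12.8 CPM in DMSO, 6.16 to 10.5 CPM in AA) and of T and NK cell markers (4.81 to 9.41 and 4.58 to 8.04 CPM) overlapped too, and the neutrophil gene Retnlg had 0 reads in all libraries.

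Sums that were higher in every AA library were those of endothelium (248 to 386 CPM in DMSO, 395 to 454 CPM in AA), fibroblasts and pericytes (74.2 to 102 and 140 to 171 CPM) and podocytes (51.3 to 75.7 and 77.8 to 123 CPM). The same held for intercalated cells (7.80 to 8.90 and 10.7 to 26.3 CPM) and B cells (3.26 to 6.58 and 7.07 to 7.97 CPM). All marker sums are of CPM as deposited and were not computed with library medians equalised. The gap was narrow for endothelium and podocytes. Of 10 endothelial markers 3 were higher and 0 lower (6 and 0 without DMSO replicate 2, 2 and 0 with library medians equalised), again against 22.3% of all tested genes. Pecam1 was higher by 0.61 on the log2 scale (adjusted p = 0.0197), a call lost without DMSO replicate 1 (0.0634), AA replicate 2 (0.0645) or AA replicate 3 (0.0681) and with library medians equalised (0.107). Plvap, the most abundant, was at 0.43 (adjusted p = 0.1) and passed without DMSO replicate 2 (0.0245). Of 6 tested fibroblast and pericyte markers 4 were higher and 0 lower, with Pdgfrb, the most abundant, up by 1.00 (adjusted p = 0.00314). Equalising library medians left 3 such markers higher, and without AA replicate 2 there were 2. Their median log2 ratio was 0.70 against DMSO replicate 3 alone, with Pdgfrb at 0.85. The most abundant podocyte, intercalated and B cell markers did not pass, with log2 ratios of 0.51 for Podxl, 0.63 for Atp6v0d2 (which passed without AA replicate 1, adjusted p = 0.0467) and 0.20 for Ms4a1. Of 5 intercalated cell markers 1 was higher as deposited, 0 with library medians equalised or without DMSO replicate 3 or AA replicate 2, and 2 without AA replicate 1. Among distal lists whose sums overlapped, 3 of 6 principal cell markers were higher and 1 lower. In the thick ascending limb 1 of 5 markers was higher (2 without DMSO replicate 2, 3 without AA replicate 1). The background for each of these marker counts as deposited is 22.3% of all tested genes higher and 8.66% lower. A count of 1 of 5 higher is near that share. Aqp2, the water channel gene of principal cells, went from 8.29 ± 1.07 to 43.4 ± 20.9 CPM (n = 3 each, log2 ratio 2.16, adjusted p = 0.00047). Aqp4, on the same list, fell from 93.7 ± 56.7 to 11.7 ± 5.05 CPM (n = 3 each, adjusted p = 0.000522). In DMSO Aqp4 stood far above Aqp2, and which cells of these tubules carried Aqp4 was not tested. Without Aqp4 the principal cell sum was 16.9 to 34.98 CPM in DMSO and 52.9 to 98.6 CPM in AA. Cldn19 of the thick ascending limb rose by 1.65 on the log2 scale (adjusted p = 0.00568). Aqp2, Aqp4 and Cldn19 were named, and Aqp4 left out, after their values were seen. The part of all these cells in the levels of Ifit1, Ifit2, Ifit3, Isg15, Usp18, Rsad2, Bst2, Oasl2 and Stat2 was not tested.

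**Figure D4:**
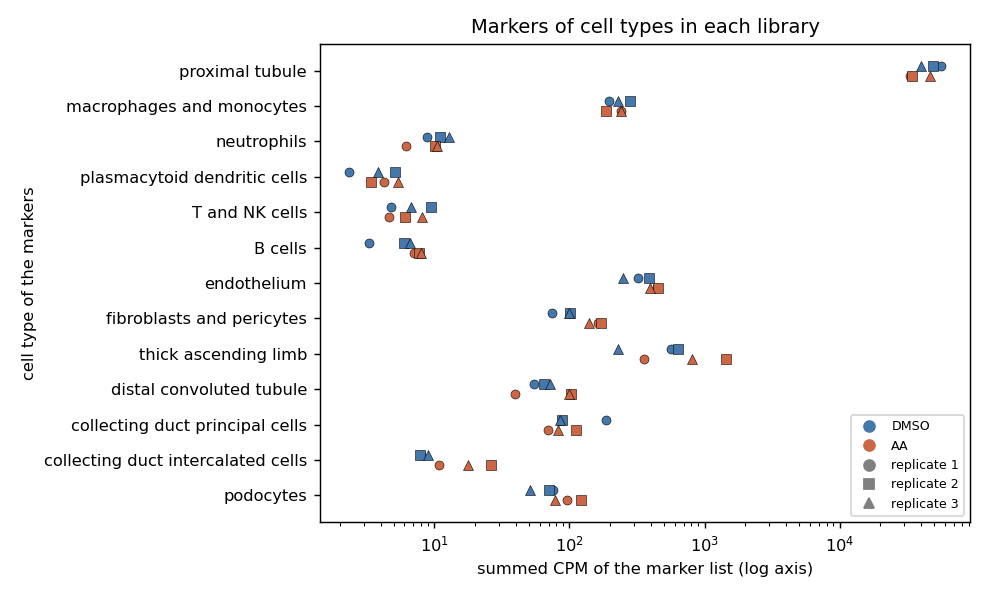
Summed CPM (log axis), as deposited, of the markers of each cell type in the 3 DMSO (blue) and 3 AA (orange) libraries. Each replicate has its own symbol. Proximal tubule markers sum to 33083 to 56128 CPM, macrophage and monocyte sums, most of which are Csf1r, overlap between the groups (without Csf1r they do not), and endothelial and fibroblast sums are higher in every AA library than in every DMSO library.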

How the data were processed

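Messenger RNA of dissected tubules was sequenced in 6 libraries (TruSeq Stranded mRNA, per the labels' protocols). The submitters' processing notes name bcl2fastq 2.19, kallisto and mm10. The sources used here do not give the annotation, the strand setting or how transcripts were summed to genes. The table deposited by the authors holds 1 value per gene and library that is log10(CPM + 1), as found from the values: turned back, each library sums to 1000000, and 100% of values are whole reads within 0.1 read. The table has 0 other per-sample columns. Its values were turned back to CPM and taken as log2(CPM + 1) (pseudocount 1). A gene was tested if 3 or more libraries had 1 CPM or more. AA was compared with DMSO, two-sided, with limma 3.58.1 (R 4.3.3, moderated test with a variance trend) and Benjamini-Hochberg adjustment over all tested genes. The fit was tested on simulated data. Adjusted p-values in the text are from this fit unless another setting is named. Intervals and limits at 0 reads cover counting error only where they come from reads.

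The 9 genes, the gene lists and the tests were chosen with earlier results of these data known, and the lists were written from general knowledge. A further gene of the pathway is not reported here and was left out of its list. Beside the 9 genes, the text names up to 4 genes with the smallest adjusted p of each pathway list (or the 2 most abundant if none passed), set markers, the most abundant marker of each list whose sums did not overlap, the 2 treatment checks and the 5 genes most like the mean profile, and says where a gene was named after its values were seen. Gene positions, exon lengths and shared 31-base runs come from GENCODE M21 on mm10, and promoter windows from RefSeq (GRCm38.p6). Alternatives changed the scaling (library medians equalised, quantile, TMM), the filter (none, 4 CPM), the pseudocount (0.1, 5), the variance model and the count model (voom on recovered reads). Others added a replicate block or a term that sets DMSO replicates 1 and 2 apart, or left out each library. With that term AA is compared with DMSO replicate 3 alone, so its log2 ratios are given without p.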

Additional observations from a re-analysis of the deposited data

How the results depend on the processing

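Of 158 alternative values for the 9 genes, 138 kept their direction and their side of the threshold, 18 lost the call, 2 gained it and 0 changed direction. The 158 values include the comparison with DMSO replicate 3 alone, which rests on 1 control. Ifit2, Ifit3, Bst2 and Oasl2 passed in every alternative that tested them. Where there was more than 1 control, their adjusted p was at most 0.00584, 0.00358, 0.0151 and 0.00838. Ifit1 was lost in 11 of 17 alternatives and Stat2 in 7 of 18. The cause was not tested. Genes passing as higher and lower, 3187 and 1239 as deposited (72.0% higher), were 1606 and 2422 with library medians equalised (39.9% higher), 1822 and 2077 with quantile normalization (46.7%), 1885 and 2114 with TMM factors (47.1%) and 1058 and 423 with the term for DMSO replicates 1 and 2. With 1 library left out they were 1694 to 2851 higher and 790 to 1118 lower, both lowest without AA replicate 2, and without AA replicate 3 1975 were higher. The 9 genes gave 4 to 6 higher calls in those fits. A longer ISRE (AG before the core) occurred in 3 genes in place of 6. Replicate numbers did not pair the libraries (correlations of same-numbered deviations -0.109, -0.156 and -0.0151), and the replicate block gave 2768 higher and 1045 lower, with Ifit1 lost (adjusted p = 0.0507). Log2 ratios that changed sign, none of them of a gene that passed, were -0.14 (medians equalised) and -0.10 (TMM) for Arih1, -0.058 (medians equalised), -0.13 (quantile) and -0.38 (term for DMSO replicates 1 and 2) for Ms4a1, -0.15 (medians equalised), -0.40 (quantile) and -0.11 (TMM) for Kap, and with that term (DMSO replicates 1 and 2) 0.12 for Ifnk and 0.35 for Mx1. With 1 library left out, they ranged from -0.33 to 0.19 for Ifnk, from -0.15 to 0.49 for Ms4a1 and from -0.091 to 0.31 for Kap. Low reads limit Isg15, Usp18 and Bst2, which had 10 to 15 reads in DMSO replicate 3.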
